A study of Mus musculus with 16 samples.

Results

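The mitochondrial ribosomal protein genes were taken as the protein-coding genes whose mouse symbol is Mrpl or Mrps followed by a digit, pseudogenes left out. The rule finds 78 of the 53379 genes in the deposited counts, and no measured value enters it. These genes were followed in male mouse embryonic stem cells (mESC), in RNA recovered with the transcription factor Sox2 by immunoprecipitation (IP) and in the matching input RNA. The cells grew on gelatin in serum medium with leukaemia inhibitory factor (LIF) at 1000 units per mL, the MEK inhibitor PD0325901 at 1 uM and the GSK3 inhibitor CHIR99021 at 3 uM, in every group. In fRIP the cells were crosslinked with formaldehyde, which also holds proteins to each other, and in UV-RIP with ultraviolet light, which joins protein to RNA in direct contact. Each crosslinker has 4 IP and 4 input libraries, numbered 3 to 6, and the IP and input of a number came from 1 lysate. The only reference for each IP is this input, so RNA held by the beads or antibody without Sox2 is not measured here.

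The mitochondrial ribosome makes the few proteins that the mitochondrial genome encodes, all of them parts of the respiratory chain complexes or of ATP synthase. Its RNA comes from the mitochondrial genome, but its proteins are encoded in the nucleus, translated in the cytosol and imported. Some of its proteins descend from those of the bacterial ribosome, and others were added in the mitochondrial lineage. Stem cells keep these genes on, as does nearly every cell type. The transcripts counted here are thus ordinary nuclear and cytosolic RNAs, spliced and unspliced, because a unique molecular identifier (UMI) anywhere on the gene body was counted, introns included.

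The libraries held between 12456298 and 21211537 UMIs on genes. Of 10 markers of embryonic stem cells, 9 were detected, and their summed level was between 2207 and 4716 CPM in every library, where CPM is the UMIs of a gene scaled to the same total in each library. Sox2 itself was listed at 0 UMIs throughout, and its body lies wholly (100%) within Sox2ot on the same strand. The part of this overlap in its count was not tested, and the 0 is no measure of its level. Markers of fibroblasts, endoderm, mesoderm and neural cells summed to at most 8.80 CPM for any list. Of 4 neural markers, Sox1, Neurod1 and Tubb3 were at 0 UMIs throughout, so the neural sum rests on Pax6 alone. Whether these zeros measure their level was not tested. The input of fRIP replicate 4 stood apart, with 2.81% of its UMIs on genes of the miscRNA class against 0.349% to 0.620% in the other 3 fRIP inputs. Values named here for fRIP are also given without replicate 4 where leaving it out changed a call or moved a called value by over 1.5 times. Gm26917, a noncoding gene, took 18.4% to 22.3% of the UMIs in the UV-RIP IPs and 12.03% to 12.29% in the UV-RIP inputs, which lowers the share left for all other genes in those IPs. In fRIP it took 5.44% to 12.4% in the IPs and 5.46% to 8.49% in the inputs, with the highest IP and the highest input both in replicate 5.

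Start sites of 4 genes that lie at opposite ends of the fRIP comparison are shown first, because they hold the same letters. Promoters of 69 of the 78 genes were found in RefSeq (GRCm38.p6), as 250 bases before to 50 after the first listed start. The letters searched, on both strands, were GCGCA and GCGC with any base between them for NRF1, CCGGAAGT for ETS factors and AANATGGC for YY1, which are factors known for the promoters of nuclear genes of mitochondria. The stretches run from 100 bases before to 30 after the start, 5′ to 3′ on the strand of the gene, and capitals mark the matches. The whole Mrpl32 stretch lies within the gene body given for it below, which is from GENCODE and not RefSeq.
Mrpl32, chr13:14613008-14613137, minus strand: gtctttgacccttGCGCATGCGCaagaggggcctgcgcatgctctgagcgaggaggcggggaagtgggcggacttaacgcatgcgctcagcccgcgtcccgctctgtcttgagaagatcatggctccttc
Mrps9, chr1:42851133-42851262, plus strand: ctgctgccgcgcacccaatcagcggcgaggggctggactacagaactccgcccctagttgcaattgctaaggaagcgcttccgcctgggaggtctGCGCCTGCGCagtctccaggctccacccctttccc
Mrpl36, chr13:73330909-73331038, plus strand: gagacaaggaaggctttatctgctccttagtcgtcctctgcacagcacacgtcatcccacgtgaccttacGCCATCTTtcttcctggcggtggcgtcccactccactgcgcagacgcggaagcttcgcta
Mrps27, chr13:99344686-99344815, plus strand: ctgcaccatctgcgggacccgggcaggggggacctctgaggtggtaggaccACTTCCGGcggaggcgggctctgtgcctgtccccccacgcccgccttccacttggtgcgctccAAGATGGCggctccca

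Mrpl32 and Mrps9 share the NRF1 letters, and Mrpl36 and Mrps27 share the YY1 letters. Mrps27 also holds the ETS letters, and Mrpl32 the YY1 letters in the part of its promoter that is not printed. The NRF1 letters were found in 13 of the 69 promoters (18.8%) and in 4.78% of 27025 promoters of all genes. The ETS letters were in 11 (15.9%) against 4.0% of all, and the YY1 letters in 21 (30.4%) against 6.23%. At least 1 of the 3 was present in 39 of the 69 (56.5%) and in 13.8% of all promoters. The promoters of these genes also had more G and C, with a median of 58.3% against 52.7%. Genes with and without the letters had fRIP medians of −0.65 and −0.64 for NRF1, −0.78 and −0.64 for ETS and −0.63 and −0.65 for YY1. A match describes letters in this window and is not evidence of binding.

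The mitochondrial ribosomal protein genes made up a smaller share of the RNA in the Sox2 IP than in the input with both crosslinkers. They held 0.246% ± 0.0273 of the UMIs in the fRIP inputs (SD, n = 4) and 0.191% ± 0.00538 in the fRIP IPs (SD, n = 4). In UV-RIP the share was 0.218% ± 0.00337 in the inputs (SD, n = 4) and 0.183% ± 0.00186 in the IPs (SD, n = 4). The 4 IP shares lay below the 4 input shares in each crosslinker. The fRIP inputs spread from 0.225% to 0.285%, the highest being replicate 4. A lower share in the IP can come from less of these RNAs or from more of others, which cannot be told apart from shares.

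IP was compared with input gene by gene with edgeR's quasi-likelihood test over 22936 genes, and 75 of the 78 members entered it. Mrpl2 and Mrpl53 had 0 UMIs in all 16 libraries and Mrpl33 at most 1. The body of each of the 3 is covered almost wholly on its own strand by another gene of the table. The part of this overlap in their counts was not tested. Mrpl17 and Mrpl40, covered wholly but on the other strand, had means of 479 and 328 UMIs. Among the 75, 6 share 10% or more of their body with a gene on the same strand, among them Mrps6 (57.6%) and Mrps18c (39.3%). Genes were called enriched or depleted at a fold change above 1.5 with an adjusted p below 0.05, and higher or lower at the adjusted p alone.

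In fRIP, 40 of the 75 genes were depleted in the IP and 1, Mrps28, was enriched. Over all genes tested 10.7% were depleted and 8.80% enriched. At the adjusted p alone, 60 were lower, against 21.9% of all genes, 4 were higher, against 17.6%, and 11 passed in neither direction. For each of the 40 depleted genes, 4 of 4 IPs were below the input of their own lysate. On the log2 scale the fold changes ran from −1.28 to 0.64 with a median of −0.63, and that of all genes was −0.03. Without replicate 4, 36 were depleted, 1 enriched and 59 lower, and the median was −0.57. Among the 69 members without a same-strand overlap of 10%, 57 were lower.

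In UV-RIP the same direction prevailed with smaller changes. There, 9 of the 75 genes were depleted and 0 enriched, against 5.53% and 0.680% of all genes. At the adjusted p alone, 55 were lower, against 29% of all genes, and 1, Mrps10, was higher, against 6.60%. DESeq2 on total UMIs also gave 0 enriched members, and 0 higher at the adjusted p alone. At an unadjusted p below 0.05, 1 member was higher and 0 passed the fold upward. The median was −0.35 with a range of −0.82 to 0.15, and that of all genes was −0.17, a difference of −0.18. These counts depend on the scaling. The depleted members were 2 with TMM, with the median of ratios, with library sizes without Gm26917 and Gm42418 or with the GC trend removed, and 0 with the length trend removed. With TMM scaling, which sets the median of all genes in UV-RIP to 0.01, 33 members were lower and 9 higher, and with the median of ratios of DESeq2 16 were lower and 3 higher. Relative to all genes the median of the members remained −0.17 under both. The called shares of all genes above are from the main scaling and do not apply to these counts.

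**Figure D1:**
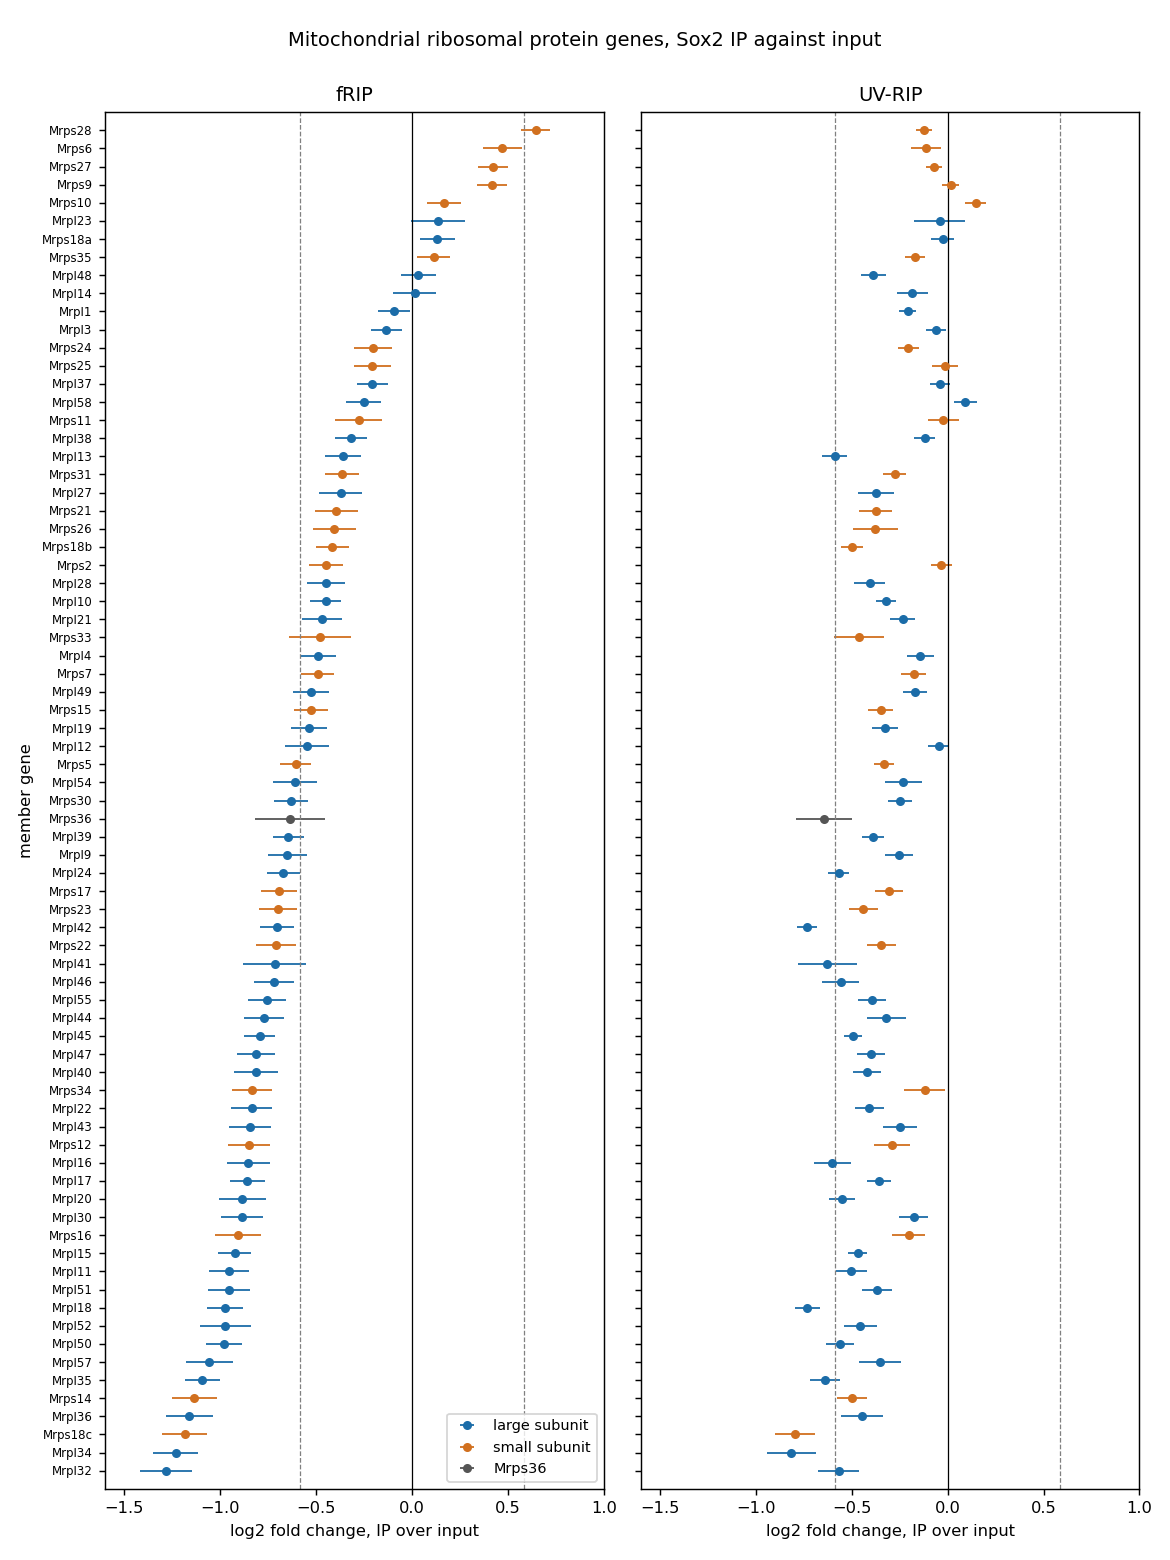
Log2 fold change of IP over input for the 75 tested genes, 1 row per gene in the order of the fRIP values, for fRIP (left) and UV-RIP (right). Points are edgeR estimates, bars their SEs and dashed lines a fold change of 1.5. Most points lie left of 0 on both sides, and the 4 genes higher in fRIP, Mrps28, Mrps6, Mrps27 and Mrps9, sit at the top with UV-RIP values between −0.12 and 0.01.

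The 2 crosslinkers share no library, and their values can be set side by side. The test placed 50 genes lower in both IPs, against 15.3% of all genes, 10 lower in fRIP alone, against 6.57%, and 5 lower in UV-RIP alone, against 13.6%. The 5 lower in UV-RIP alone include Mrps28, the gene enriched in fRIP. Another 6, Mrpl3, Mrpl14, Mrpl23, Mrps11, Mrps18a and Mrps25, passed in neither. The count lower in both was 32 with TMM scaling, 16 with the median of ratios, 31 with the GC trend removed and 23 with the length trend removed. In the same order, 26, 36, 29 and 18 were lower in fRIP alone and 1, 0, 2 and 3 in UV-RIP alone. With library sizes without Gm26917 and Gm42418, 36 were lower in both, 22 in fRIP alone and 1 in UV-RIP alone. DESeq2 on total UMIs gave 38, 17 and 5. The shares of all genes above are from the main fit. The estimate was below 0 in both for 64 of the 75, against 41.5% of all genes. Across the 75 genes the fold changes of the crosslinkers had a Pearson's r of 0.67 and a Spearman's rho of 0.67, a description across genes, which share their libraries and are not independent replicates.

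Genes of both subunits were mostly lower in the IP, and all 4 members higher in fRIP were of the small subunit. The shares of all genes were 21.9% lower and 17.6% higher in fRIP, and 29% lower and 6.60% higher in UV-RIP. The large subunit, which forms peptide bonds, has 51 members here, the Mrpl genes with Mrps30 and Mrps18a, whose proteins sit in the large subunit despite their names. Of its 48 tested genes, 42 were lower and 0 higher in fRIP, with a median of −0.71, and 37 were lower and 0 higher in UV-RIP, with a median of −0.38. At an unadjusted p below 0.05, 0 of them were higher in either. The small subunit, which binds and decodes the mRNA, had 17 of 26 lower and 4 higher in fRIP, with a median of −0.43. In UV-RIP it had 17 lower and 1 higher, with a median of −0.24. Among genes under 10 kb, the fRIP medians were −0.75 for 35 large-subunit genes and −0.53 for 15 small-subunit genes. The difference between the subunits was not tested.

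Members with a bacterial homologue and members found only in mitochondria had near medians. Beside their counts stand 21.9% lower and 17.6% higher of all genes in fRIP, and 29% lower and 6.60% higher in UV-RIP. Of 44 tested genes with a homologue, 34 were lower and 3 higher in fRIP with a median of −0.58, and 32 were lower in UV-RIP with a median of −0.33. Of 30 mitochondria-specific genes, 25 were lower and 1 higher in fRIP with a median of −0.64, and 22 were lower in UV-RIP with a median of −0.35. Mrps36 is in neither group, since its product is known as a subunit of the 2-oxoglutarate dehydrogenase complex and not of the ribosome. It had 2.86, 3.02, 2.82 and 3.16 CPM in the fRIP inputs of replicates 3 to 6 and 1.52, 1.95, 2.22 and 1.94 CPM in the IPs. The groups did not overlap, and its log2 fold change was −0.64 (SE, standard error, 0.18, adjusted p = 0.00635). It was the tested member with the fewest UMIs, a mean of 43.8 per library, and without replicate 3 its fRIP call was lost (−0.56, adjusted p = 0.0536).

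Mrpl32, a homologue of bacterial L32 that a protease of the inner membrane matures, fell most in fRIP. It lies on the minus strand of chromosome 13 from 14608184 to 14613165 (GRCm38). It had 7.93, 17.7, 11.1 and 8.15 CPM in the fRIP inputs of replicates 3, 4, 5 and 6, and 4.12, 5.30, 4.10 and 4.43 CPM in the IPs. The highest IP lay below the lowest input, and the input of replicate 4 was the highest of all. The log2 fold change was −1.28 (SE 0.14, adjusted p = 6.27e-08), or 2.43-fold lower, and −1.11 without replicate 4. Its rank was then lost, with Mrpl34 at −1.22 and Mrps18c at −1.12. In UV-RIP the inputs were 7.95, 8.49, 8.33 and 8.10 CPM and the IPs 5.77, 5.43, 5.42 and 5.56 CPM. These groups did not overlap either, with a log2 fold change of −0.57 (SE 0.11, adjusted p = 6.02e-07).

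Mrpl34 encodes the homologue of bacterial L34, one of the smallest ribosomal proteins. It is the shortest member, on the plus strand of chromosome 8 from 71464959 to 71465747. It had 9.43, 12.3, 12.8 and 10.9 CPM in the fRIP inputs and 3.61, 5.11, 5.42 and 5.26 CPM in the IPs. In UV-RIP it had 5.70, 4.80, 6.66 and 6.73 CPM in the inputs and 4.22, 3.93, 2.74 and 2.89 CPM in the IPs. No IP reached an input of the same crosslinker, with log2 fold changes of −1.23 in fRIP (SE 0.12, adjusted p = 9.15e-09) and −0.82 in UV-RIP (SE 0.13, adjusted p = 1.33e-09).

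Mrps18c, on the plus strand of chromosome 5 from 100798627 to 100804471, encodes a homologue of bacterial S18 and was counted above among the members with a homologue. It had 9.10, 15.3, 11.1 and 10.8 CPM in the fRIP inputs and 4.29, 5.93, 4.53 and 5.48 CPM in the IPs. The UV-RIP inputs had 10.2, 9.05, 8.71 and 8.46 CPM and the IPs 4.99, 5.76, 5.11 and 5.03 CPM. The IPs lay below the inputs throughout, and the log2 fold changes were −1.19 (SE 0.12, adjusted p = 1.87e-08) and −0.80 (SE 0.10, adjusted p = 5.14e-13). Mrps18a and Mrps18b, related genes counted here as specific to mitochondria, had values nearer to 0. Mrps18b, whose protein is in the small subunit, was −0.41 in fRIP and −0.50 in UV-RIP (adjusted p = 3.72e-04 and 7.67e-17). Mrps18a, whose protein is in the large subunit, was 0.13 and −0.03 (adjusted p = 0.276 and 0.807), and the latter became 0.15 with TMM scaling (adjusted p = 0.0311). Without replicate 4 the fRIP value was 0.08 (adjusted p = 0.480). Its CPM was 25.2, 24.04, 26.8 and 24.9 in the fRIP inputs and 24.1, 29.7, 29.5 and 27.7 in the IPs, which overlap.

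The other genes with the strongest falls in fRIP were Mrpl36, Mrps14 and Mrpl35, homologues of bacterial L36, S14 and L35. Mrpl36 had 12.5, 19.9, 14.2 and 13.4 CPM in the fRIP inputs and 4.91, 6.86, 6.84 and 8.19 CPM in the IPs, a log2 fold change of −1.16 (adjusted p = 5.53e-08). Mrps14 had 20.9, 36.8, 23.7 and 18.9 CPM and 10.9, 11.8, 10.4 and 11.6 CPM, a log2 fold change of −1.14 (adjusted p = 4.28e-08). For both, replicate 4 had the highest input, and without it the values were −1.02 and −0.95. Mrpl35 had 25.5, 30.3, 27.2 and 26.8 CPM in the fRIP inputs and 11.2, 14.3, 12.4 and 13.7 CPM in the IPs, a log2 fold change of −1.09 (adjusted p = 2.11e-09). Its inputs were closer together, and it read −1.10 without replicate 4. The 3 genes also fell in UV-RIP, by 0.45, 0.50 and 0.64 on the log2 scale in the same order (adjusted p = 1.98e-04, 7.51e-10 and 3.00e-15).

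Mrpl42 and Mrpl18 were among the genes that fell most in UV-RIP. Mrpl42, a large-subunit protein specific to mitochondria, had 49.6, 48.0, 53.8 and 51.8 CPM in the UV-RIP inputs and 29.3, 30.5, 30.1 and 32.3 CPM in the IPs. In fRIP it had 46.2, 44.9, 48.8 and 46.9 CPM in the inputs and 30.5, 30.2, 24.9 and 29.4 CPM in the IPs. Its inputs and IPs stood at about the same levels in the 2 crosslinkers, and the log2 fold changes were −0.73 (adjusted p = 6.69e-40) in UV-RIP and −0.70 (adjusted p = 5.83e-07) in fRIP. Their difference was 0.03 (SE 0.10, adjusted p = 0.887), which does not show that they were equal. Mrpl18 had 30.2, 26.6, 28.01 and 28.9 CPM in the UV-RIP inputs and 17.4, 16.95, 17.3 and 16.8 CPM in the IPs, with no overlap and a log2 fold change of −0.73 (adjusted p = 5.97e-27). Its fRIP value was −0.97 (adjusted p = 1.35e-08). Together with Mrpl34, Mrps18c, Mrpl35 and Mrps36, and with Mrpl16 and Mrpl41, which were named after their values were seen, these genes make up the 8 members depleted in both crosslinkers, against 2.35% of all genes. That count was 2 with TMM scaling, the median of ratios, library sizes without Gm26917 and Gm42418 or the GC trend removed, and 0 with the length trend removed.

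Some members fell in fRIP without a call in UV-RIP. Mrpl12, whose protein forms the stalk that receives translation factors, had 48.5, 105, 64.7 and 51.7 CPM in the fRIP inputs and 36.3, 46.0, 49.4 and 46.0 CPM in the IPs. The groups overlap, replicate 4 is far above the other inputs, and the log2 fold change was −0.55 (adjusted p = 3.38e-04), or −0.33 without replicate 4. In UV-RIP it had 39.3, 37.2, 36.6 and 39.3 CPM in the inputs and 37.0, 36.5, 36.5 and 37.4 CPM in the IPs, a log2 fold change of −0.05 (adjusted p = 0.595), which became 0.13 with TMM scaling (adjusted p = 0.0466) and 0.19 with the length trend removed (adjusted p = 0.00327). Mrps16 and Mrpl30, homologues of bacterial S16 and L30, were −0.91 and −0.89 in fRIP (adjusted p = 1.24e-06 and 4.92e-07), and −0.70 and −0.74 without replicate 4. In UV-RIP they were −0.20 and −0.18 (adjusted p = 0.0506 and 0.0504), close to the threshold. Mrps16 passed it without replicate 4 (−0.28, adjusted p = 0.0126), and Mrpl30 without replicate 5 (−0.30, adjusted p = 0.00193) but read −0.07 without replicate 3 (adjusted p = 0.628). Mrps30, a large-subunit protein, was lower in both, at −0.63 (adjusted p = 3.06e-06) and −0.25 (adjusted p = 3.56e-04). Its UV-RIP call was lost with TMM scaling (−0.07) and its sign turned when the GC trend was removed (0.14, adjusted p = 0.0805). Mrpl58, a hydrolase that frees peptides from stalled ribosomes, was −0.25 in fRIP (adjusted p = 0.0333), and 0.09 in UV-RIP (adjusted p = 0.232). Its fRIP call was lost without replicate 4 (−0.16, adjusted p = 0.0889), 5 (−0.29, adjusted p = 0.0579) or 6 (−0.24, adjusted p = 0.113), and its UV-RIP value became 0.27 with TMM scaling (adjusted p = 1.37e-05).

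The genes that went the other way in fRIP were 4 small-subunit genes with long bodies. Mrps28, the mitochondrial S1 homologue, was the only enriched member. It spans 121773 bases on the minus strand of chromosome 3, from 8802146 to 8923918, and 99.4% of its body is intronic. It had 111, 87.3, 84.8 and 98.3 CPM in the fRIP inputs and 177, 146, 124 and 151 CPM in the IPs. Every IP was above every input, with a log2 fold change of 0.64 (SE 0.08, adjusted p = 2.42e-07), or 1.56-fold, and 0.61 without replicate 4. In UV-RIP it had 161, 159, 144 and 167 CPM in the inputs and 140, 145, 147 and 147 CPM in the IPs. Those groups overlap, and the log2 fold change of −0.12 (SE 0.04, adjusted p = 0.00911) was lost without replicate 3 (−0.10, adjusted p = 0.146) or 6 (−0.10, adjusted p = 0.123) and became 0.06 with TMM scaling (adjusted p = 0.279).

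Mrps27, Mrps9 and Mrps6 were higher in the fRIP IP without reaching the fold threshold. Mrps27, a protein with RNA-binding pentatricopeptide repeats, had 113, 110, 107 and 109 CPM in the inputs and 157, 158, 129 and 144 CPM in the IPs (0.42, SE 0.08, adjusted p = 7.73e-05). Mrps9, the homologue of bacterial S9, had 95.96, 87.3, 89.0 and 94.9 CPM and 136, 130, 107 and 119 CPM (0.42, SE 0.08, adjusted p = 1.32e-04). For Mrps6, the homologue of bacterial S6, the inputs had 14.1, 13.01, 15.1 and 15.6 CPM and the IPs 20.6, 18.7, 16.5 and 24.8 CPM (0.47, SE 0.10, adjusted p = 5.44e-04). In each case all IPs were above all inputs. In UV-RIP the 3 genes were at −0.07, 0.01 and −0.11 (adjusted p = 0.196, 0.854 and 0.299). With TMM scaling, Mrps27 and Mrps9 were higher there too, at 0.11 and 0.20 (adjusted p = 0.0155 and 2.78e-06). The value of Mrps6 carries the overlap on its strand given above. With these 4 genes, 4 of 75 members had all IPs above all inputs in fRIP, against 15.3% of all genes, and 53 had all IPs below, against 19.2%.

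Mrps10, the homologue of bacterial S10, was the only member higher in UV-RIP. It had 39.7, 37.8, 44.2 and 42.5 CPM in the inputs and 43.8, 45.8, 44.5 and 47.6 CPM in the IPs. The IP was above its own input in 4 of 4 pairs while the groups overlap, with a log2 fold change of 0.15 (SE 0.05, adjusted p = 0.0181). The call was lost without replicate 3, 4 or 6, where the value lay between 0.10 and 0.15. In fRIP it was 0.17 (adjusted p = 0.140), and it passed without replicate 4 (0.23, adjusted p = 0.00408). In UV-RIP, 0 members had all IPs above all inputs, against 4.93% of all genes, and 45 had all IPs below, against 25%.

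**Figure D2:**
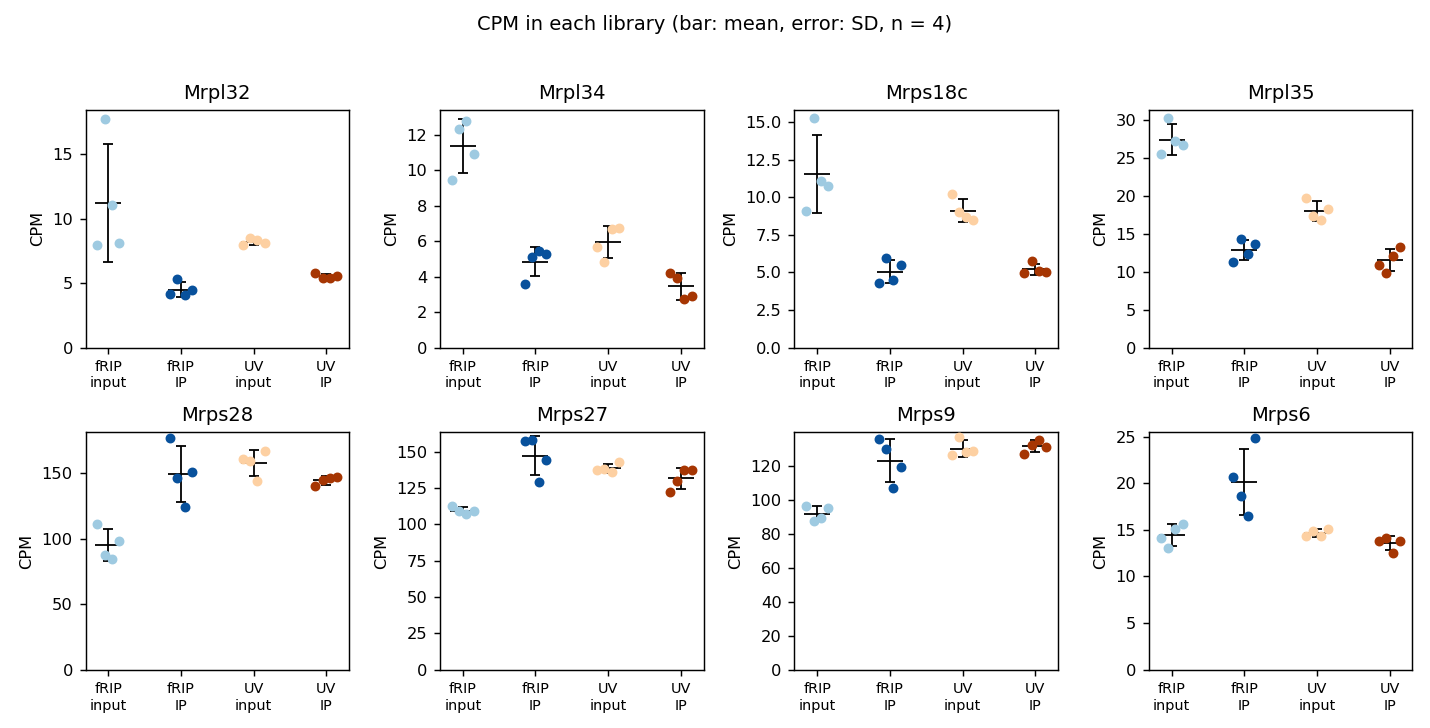
CPM in each library for Mrpl32, Mrpl34, Mrps18c and Mrpl35, which were lower in both IPs (top), and for the 4 genes higher in fRIP (bottom). Points are libraries, horizontal bars the mean and error bars the SD of 4, with each vertical axis starting at 0. In the top panels the inputs stand above the IPs in both crosslinkers, by more in fRIP, and for Mrps28, Mrps27 and Mrps9 the fRIP inputs stand below the other 3 groups, as with 84.8 to 111 CPM for Mrps28.

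Gene length went with the fRIP value. The 24 members under 5 kb had a median of −0.84 and were all lower. Of 27 members between 5 and 10 kb 25 were lower, with a median of −0.63, and of 14 between 10 and 20 kb 9 were lower, with a median of −0.48. The 4 members between 20 and 50 kb had a median of −0.25. The 6 members of 50 kb or more had a median of 0.42, with 4 higher and 0 lower. The UV-RIP medians over the same classes were −0.39, −0.35, −0.30, −0.38 and −0.12. The classes were set after the values were seen.

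In fRIP all genes followed the same order by length. Over the genes tested with a mean of 10 or more UMIs, the fRIP medians in these classes were −0.53, −0.30, −0.16, −0.01 and 0.27, and the UV-RIP medians −0.26, −0.19, −0.17, −0.17 and −0.11. In the classes under 20 kb the medians of the members lay below those of all genes in both crosslinkers. In the first 4 classes 55.8%, 48.1%, 39.5% and 29.7% of all genes were lower in fRIP, from the shortest up, and in the class of 50 kb or more 48.1% were higher. With the trend on length removed in fRIP, 11 members were depleted, 0 enriched, 41 lower and 7 higher, and the median was −0.27. In UV-RIP, 0 were then depleted, 26 lower and 6 higher, with a median of −0.13. The medians of all genes were then 0.04 in fRIP and 0.00 in UV-RIP, and their called shares are not given here. Across the 75 genes, the log10 of length and the fRIP fold change had a Pearson's r of 0.68 and a Spearman's rho of 0.57, or 0.47 and 0.45 over the 69 members under 50 kb. For UV-RIP, r was 0.30 and rho 0.24. The intronic share of the gene body had an r of 0.43 with the fRIP value and 0.04 with the UV-RIP value.

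**Figure D3:**
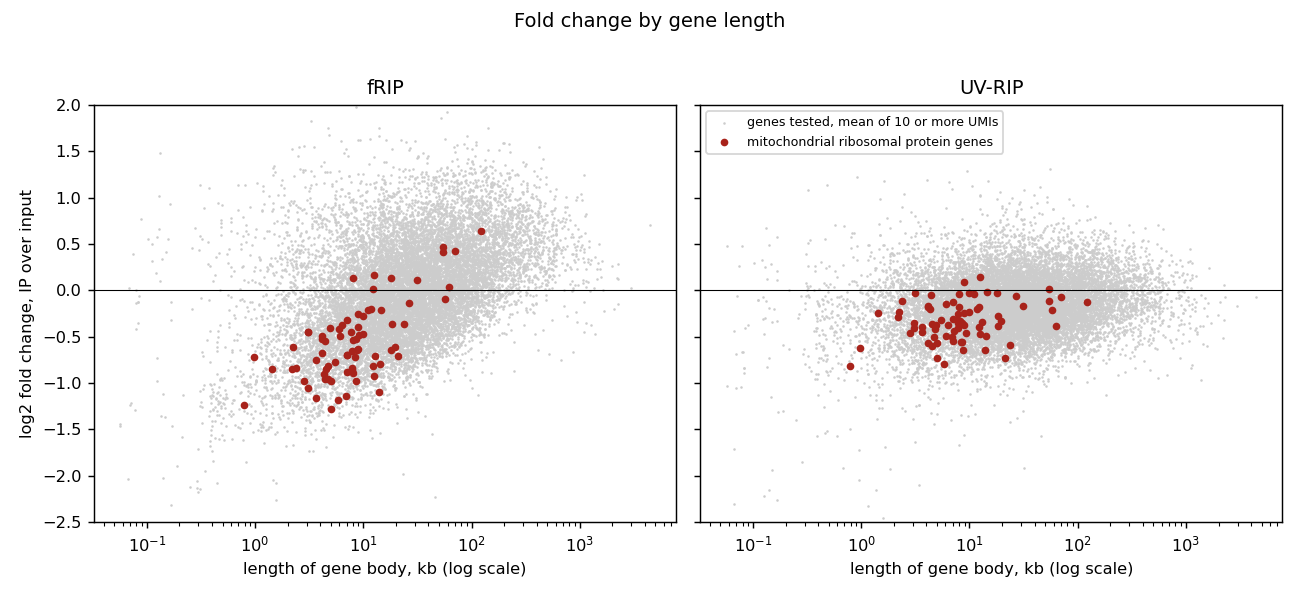
Log2 fold change of IP over input against the length of the gene body in kb (log scale) for fRIP (left) and UV-RIP (right). Grey points are genes tested with a mean of 10 or more UMIs and red points the mitochondrial ribosomal protein genes. The few most extreme grey points lie outside the vertical axis. In fRIP both rise with length, from a member median of −0.84 under 5 kb to 0.42 at 50 kb or more, and in UV-RIP the cloud is flatter.

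The fold changes differed between the crosslinkers for many of the genes, mostly with a lower value in fRIP. By an interaction term over the 16 libraries, 33 of 75 members were lower in fRIP relative to UV-RIP, against 8.07% of all genes, and 6 were higher, against 18.6%. With the fold threshold as well, 9 were lower, against 2.69% of all genes, and 1 was higher, against 7.87%. The other 36 passed in neither direction, which does not show that they were equal. The median difference was −0.26, and that of all genes 0.15. Both depend on the scaling, with −0.38 and 0.03 under TMM, −0.40 and 0.01 with the median of ratios, and −0.43 and 0.00 with the GC trend removed. Without replicate 3 the count of lower members was 20, and without any other replicate 24 or 25. It was 14 without the replicate block, and with the length trend removed 16 were lower and 1 higher. Of the 50 genes lower in both crosslinkers, 26 were lower by more in fRIP. The like share among all genes lower in both is not given here, so this count has no base beside it. Plates were crosslinked either way and not both, so the crosslinker and the plates cannot be told apart.

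Mrps28 had the largest difference in the upward direction, 0.77 (SE 0.08, adjusted p = 1.94e-07). Mrps6, Mrps27, Mrpl48 and Mrps9 followed with 0.58, 0.49, 0.43 and 0.40 (adjusted p = 8.76e-04, 5.21e-05, 0.00484 and 7.09e-04), and Mrps35, named after its value was seen, was the sixth. Mrpl48, a large-subunit protein, had 26.4, 24.98, 31.7 and 26.7 CPM in the UV-RIP inputs and 18.1, 16.95, 26.4 and 22.3 CPM in the IPs (−0.39, adjusted p = 1.21e-08). In fRIP it was 0.03 (adjusted p = 0.837) and 0.02 without replicate 4 (adjusted p = 0.919), and its difference was lost without replicate 3 (0.37, adjusted p = 0.0671). Downward, Mrpl32, Mrpl36, Mrpl30 and Mrps16 had differences between −0.73 and −0.71, with adjusted p between 6.40e-04 and 0.00333. Without replicate 4 that of Mrps16 was −0.42 (adjusted p = 0.00788). The call of Mrpl36 was lost without replicate 3 (adjusted p = 0.0501). Mrps14 differed by −0.64, Mrpl12 by −0.51, Mrpl35 by −0.45, Mrps30 by −0.39 and Mrpl58 by −0.34 (adjusted p = 0.00197, 0.00852, 0.00681, 0.00830 and 0.0188). That of Mrpl12 was −0.27 without replicate 4 (adjusted p = 0.0106). The call of Mrpl35 was lost without replicate 5 (−0.37, adjusted p = 0.0664) and that of Mrpl58 without replicate 6 (−0.30, adjusted p = 0.128). For Mrpl34 and Mrps18c the differences of −0.42 and −0.39 missed the threshold (adjusted p = 0.122 and 0.0592), and that of Mrpl34 passed it without replicate 6 (−0.62, adjusted p = 0.0426).

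The inputs differed between the crosslinkers more than the IPs did for short and long members. The 51 members under 10 kb together held 0.130% of the UMIs in the fRIP inputs and 0.0932% in the UV-RIP inputs, but 0.0823% and 0.0749% in the IPs. The 6 members of 50 kb or more held 0.0398% in the fRIP inputs and 0.0556% in the UV-RIP inputs, and 0.0523% and 0.0519% in the IPs. Of the 75 members, 37 had all 4 fRIP inputs above all 4 UV-RIP inputs, against 19% of all genes, and 8 had them below, against 17.5%. Between the IPs the counts were 15 above, against 24.6%, and 10 below, against 9.22%. From the shortest to the longest class, the median log2 ratio of the fRIP to the UV-RIP input was 0.68, 0.35, 0.23, −0.12 and −0.41. For the IPs it was 0.26, 0.14, −0.01, 0.01 and 0.04. Over all genes of these classes the input medians were 0.48, 0.26, 0.10, −0.00 and −0.16, and the IP medians 0.25, 0.17, 0.12, 0.15 and 0.21. These ratios compare libraries of different plates and were not tested gene by gene. In such bulk RNA, fewer cells of a kind and less RNA per cell cannot be told apart.

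**Figure D4:**
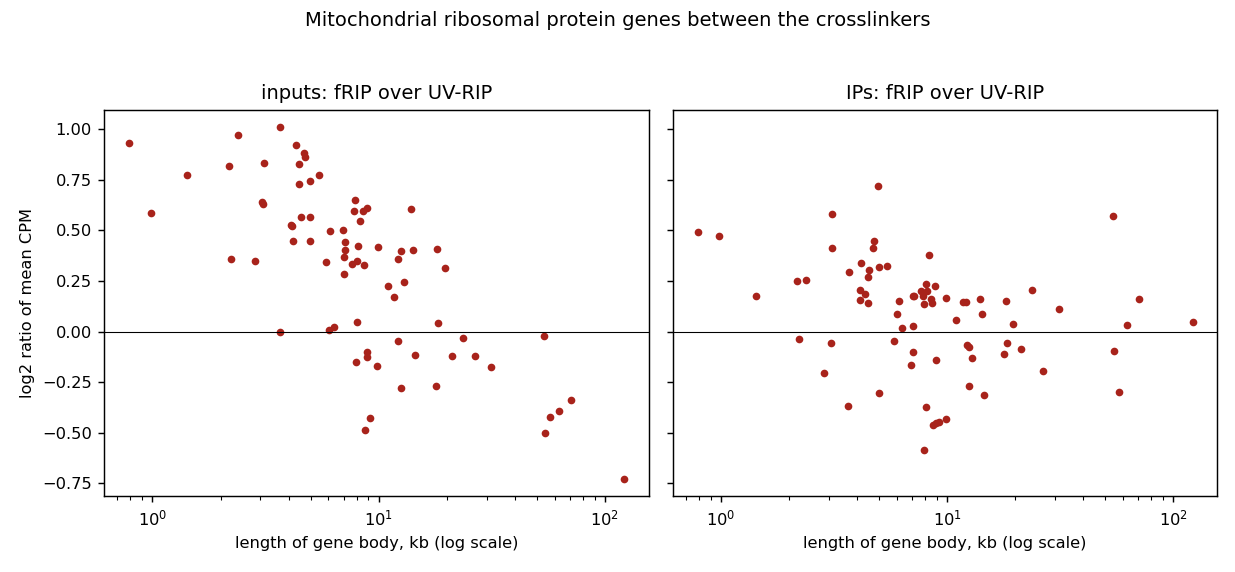
Log2 ratio of the mean CPM in fRIP to that in UV-RIP, for inputs (left) and IPs (right), against the length of the gene body in kb (log scale), with 1 point per tested mitochondrial ribosomal protein gene. The input ratios fall with length, from 1.01 for Mrpl36 to −0.73 for Mrps28, while the IP ratios lie between −0.59 and 0.72 with a weaker relation to length.

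Among genes, levels are compared per kb of gene body over the mean of the 8 inputs. The 75 members ranged from 0.270 CPM per kb for Mrps6 to 16.7 for Mrps2, named after its value was seen, with a median of 2.99. Mrps28, Mrps27 and Mrps9, the members with the most UMIs, had 1.04, 1.75 and 2.04 CPM per kb and thus stood below this median. The UMIs behind a value were few for some genes, with means per library from 43.8 to 2140 and a median of 307.

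Proteins of the mitochondrial ribosome that carry other names gave values of the same kind. Chchd1 and Aurkaip1, small-subunit proteins, were −1.33 and −0.998 in fRIP (adjusted p = 3.78e-07 and 3.80e-07) and −0.62 and −0.34 in UV-RIP (adjusted p = 1.95e-10 and 7.75e-05). Gadd45gip1, a large-subunit protein near the exit of the peptide tunnel, was −0.85 and −0.42 (adjusted p = 8.67e-07 and 6.03e-06). Ptcd3, with pentatricopeptide repeats, was −0.35 and −0.34 (adjusted p = 5.13e-04 and 5.99e-16). Dap3, a small-subunit protein that binds GTP, passed in neither, at −0.07 and −0.03. Of the 5 genes, 4 were lower with each crosslinker. In UV-RIP with TMM scaling, Aurkaip1 lost its call (−0.16, adjusted p = 0.125) and Dap3 was higher (0.15, adjusted p = 0.00486). Gadd45gip1 lost its UV-RIP call with the median of ratios (−0.25, adjusted p = 0.163) and with the length trend removed (−0.18, adjusted p = 0.0980). Aurkaip1 lost its own under both as well (−0.17 and −0.06, adjusted p = 0.340 and 0.654). In fRIP with the length trend removed, Chchd1, Aurkaip1 and Gadd45gip1 remained lower, at −0.70, −0.43 and −0.42 (adjusted p = 0.00130, 0.00687 and 0.00366). With the GC trend removed Ptcd3 lost its calls, at −0.11 in fRIP and 0.01 in UV-RIP (adjusted p = 0.277 and 0.933).

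Genes that act on the mitochondrial ribosome without being part of it had medians closer to 0 in fRIP. Their counts stand beside 21.9% lower and 17.6% higher of all genes in fRIP, and 29% lower and 6.60% higher in UV-RIP. Of 26 genes of its assembly and of the modification of its RNA, 13 were lower and 3 higher in fRIP, with a median of −0.24, and 20 were lower and 1 higher in UV-RIP, with a median of −0.22. Of 10 translation factors, 5 were lower and 0 higher in fRIP, with a median of −0.18, and 7 were lower in UV-RIP, with a median of −0.26. The 17 mitochondrial aminoacyl-tRNA synthetases, which charge tRNAs with amino acids, had 5 lower and 5 higher in fRIP with a median of −0.03, and 8 were lower and 1 higher in UV-RIP. The differences between the lists were not tested, and the lists were not matched for gene length. The bodies of the synthetases run from 4.21 kb for Pars2 to 609 kb for Fars2, and the tested members have a median of 7.9 kb.

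Single genes of these lists are named here after their values were seen. Gtpbp6, a GTPase that acts on the large subunit, was higher in both, at 0.77 in fRIP and 0.26 in UV-RIP (adjusted p = 2.40e-07 and 3.71e-04). Vars2, the valine synthetase, was also higher in both, at 0.60 and 0.36 (adjusted p = 3.72e-06 and 2.56e-09). Their bodies span 4.22 and 11.96 kb. Ddx28, a helicase of large-subunit assembly, was −0.83 in fRIP (adjusted p = 2.06e-06) and −0.20 in UV-RIP (adjusted p = 0.205). Tufm, the elongation factor Tu of mitochondria, was −0.47 in fRIP (adjusted p = 2.62e-04) and 0.08 in UV-RIP (adjusted p = 0.534). It was −0.01 in fRIP with the length trend removed (adjusted p = 0.944) and 0.26 in UV-RIP with TMM scaling (adjusted p = 0.00501). The UV-RIP call of Gtpbp6 was lost with the GC trend removed (0.16, adjusted p = 0.0690). With the length trend removed, the fRIP value of Ddx28 was −0.30 (adjusted p = 0.0435). Those of Gtpbp6 and Vars2 were then 1.19 and 0.79 (adjusted p = 1.78e-09 and 1.72e-07).

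**Figure D5:**
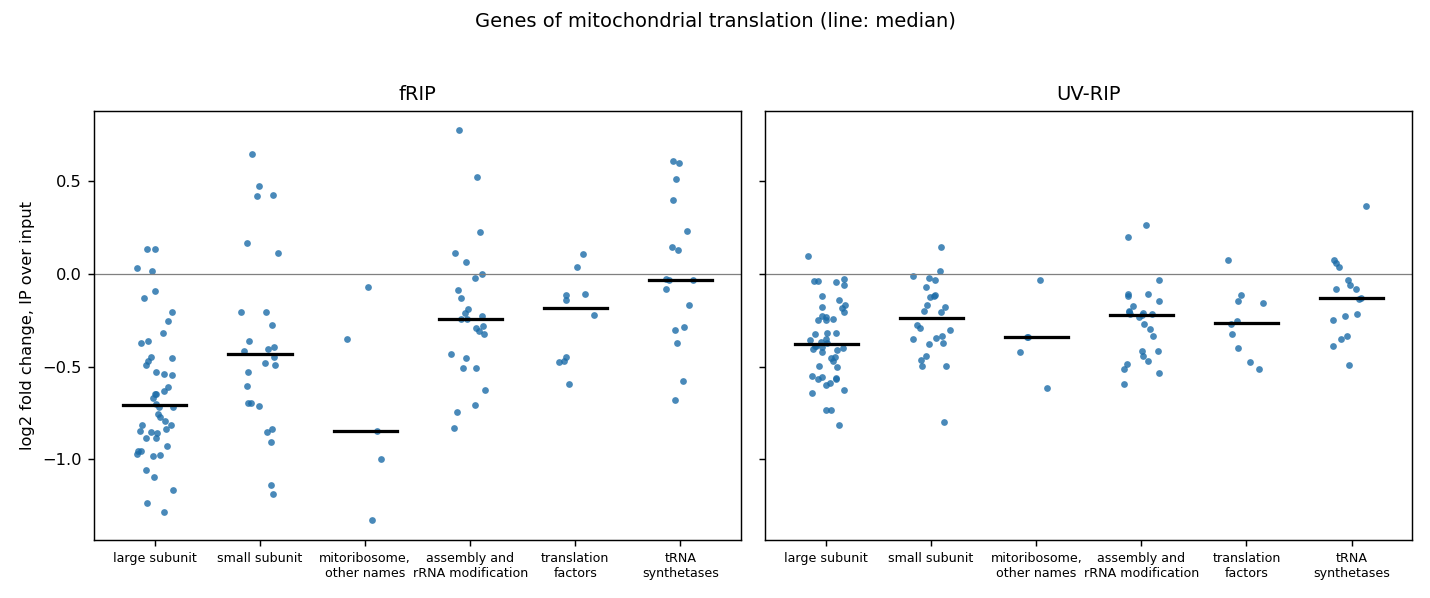
Log2 fold change of IP over input for the large and small subunits, the ribosomal proteins with other names and the lists of genes that act on the mitochondrial ribosome, in fRIP (left) and UV-RIP (right), with 1 point per gene and a line at the median. The fRIP medians run from −0.85 for the ribosomal proteins with other names and −0.71 for the large subunit to −0.03 for the synthetases, and the UV-RIP medians lie between −0.38 and −0.13.

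Cytosolic ribosomal protein genes and nuclear genes of the respiratory chain are set beside the members, with no test between the lists and no matching for gene length. Among all genes, 21.9% were lower and 17.6% higher in fRIP, and 29% were lower and 6.60% higher in UV-RIP. Of 83 tested cytosolic ribosomal protein genes, 82 were lower and 0 higher in fRIP, with a median of −0.99, and 79 were lower and 0 higher in UV-RIP, with a median of −0.55. Of 92 tested respiratory chain genes, 79 were lower and 2 higher in fRIP, with a median of −0.84, and 73 were lower and 0 higher in UV-RIP, with a median of −0.41. The members, at −0.63 and −0.35, had medians nearer to 0 than both lists in each crosslinker.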

How the data were processed

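RNA from Sox2 IP and input of mESC was sequenced with UMIs after depletion of ribosomal RNA. The authors mapped reads to mm10 with STAR, kept unique reads and deposited UMI counts per gene body (GENCODE vM16, featureCounts), over exons and introns, without normalization. Versions and the strand setting are not given in the sources used here. For each crosslinker the counts of IP and input libraries were fitted in R 4.3.3 with edgeR 4.0.16 (quasi-likelihood test), with total UMIs as library size, the replicate number as block and a filter of 3 UMIs in at least 1 library (22936 genes). Adjusted p is by Benjamini-Hochberg over all of them. The interaction was fitted over 16 libraries with the plate as block. Same-numbered IP and input share a lysate by the methods, and their deviations from the group means correlated at 0.11 to 0.60 in fRIP and 0.03 to 0.44 in UV-RIP. Replicates differed by more than sampling noise (chi-square per degree of freedom 1.52 or more). The labels name 4 samples per group, described as biological replicates in the methods.

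Coordinates are from GENCODE vM21 (GRCm38) where identifier and version matched (50604 of 53379 genes). Another 2670 matched by identifier alone, 8 of them members, and have none printed. Members, lists and tests were chosen with earlier results of these data known. Named members, with a mean of 10 or more UMIs, are the 6 with the largest and the 6 with the smallest fold change in each crosslinker that were called and moved alike in all 4 pairs, the 4 with the largest difference each way, the 3 highest in the inputs, and Mrps30, Mrps18a, Mrps18b, Mrps18c, Mrps36, Mrpl12 and Mrpl58, with Dap3, Ptcd3, Chchd1, Aurkaip1 and Gadd45gip1. The scripts were tested on simulated data. Alternatives were TMM, library sizes without Gm26917 and Gm42418, DESeq2 1.42.0, other filters, no block, removal of a trend on length or GC content, and each replicate left out.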

Additional observations from a re-analysis of the deposited data

Results flagged for a closer look

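A value far from the other 3 was looked for in 50 groups of 4 pair ratios, where chance marks about 1 group in 20, and 3 were found. In fRIP, Mrps16 had a log2 ratio of IP to input of −1.50 in replicate 4 and −0.74 to −0.60 in the others. The median ratio of all members in fRIP was −0.82 in replicate 4 and −0.54 to −0.50 in the others. Replicate 4 is also the pair whose input held 2.81% of its UMIs on the miscRNA class, and the part of this in the ratios was not tested. Mrpl48 had −0.14 in fRIP replicate 5 and 0.08 to 0.10 in the others.

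The effects of 14 of the 22 named members differed between the crosslinkers by the interaction test. Some of the 22 were named for the size of this difference, so the count is partly set by that choice. It does not measure how common such differences are among the members. Of all genes, 18.6% were higher and 8.07% lower in fRIP relative to UV-RIP by the same test. The difference of fRIP minus UV-RIP log2 fold changes was positive for Mrps28 (0.77), Mrps6 (0.58), Mrps27 (0.49), Mrpl48 (0.43) and Mrps9 (0.40). It was negative for Mrpl32 (−0.73), Mrpl36 (−0.71), Mrpl30 (−0.71), Mrps16 (−0.71), Mrps14 (−0.64), Mrpl12 (−0.51), Mrpl35 (−0.45), Mrps30 (−0.39) and Mrpl58 (−0.34).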

How the results depend on the processing

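In fRIP the median of the members stayed below 0 under every alternative run and the count of lower members stayed between 41 and 60. Removing the length trend gave 11 depleted, 0 enriched, 7 higher and a median of −0.27 in fRIP, and 1 higher and 16 lower in the difference. In UV-RIP it gave 0 depleted, 6 higher, 26 lower and a median of −0.13. Also in UV-RIP, the count of depleted members was 2 with TMM, with library sizes without Gm26917 and Gm42418, with the median of ratios of DESeq2 and with the GC trend removed. The members higher there were 9, 3, 3 and 6 in that order, and 0 with DESeq2 on total UMIs. The members lower were 33 with TMM, 16 with the median of ratios and 33 with the GC trend removed. The UV-RIP medians under these 4 were −0.17, −0.19, −0.17 and −0.17, and the median difference, −0.26 as reported, was −0.43 with the GC trend removed, −0.40 with the median of ratios, −0.39 with the library sizes without the 2 genes, −0.38 with TMM and −0.17 with the length trend removed. The called shares of all genes under these alternatives are not given here. The cause was not tested. Without the replicate block, 0 members were higher in UV-RIP and 14 were lower in the difference. Apart from the counts across both crosslinkers given above, no other count of members moved by over 1.5 times.

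Leaving out 1 replicate at a time gave 36 to 42 depleted, 1 enriched, 4 to 5 higher and 55 to 59 lower members in fRIP, with medians of −0.64 to −0.57. In UV-RIP it gave 7 to 10 depleted, 0 enriched, 0 to 1 higher and 49 to 57 lower, with medians of −0.35 to −0.31. In the difference it gave 4 to 7 higher and 20 to 25 lower, with medians of −0.31 to −0.21.

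For the 22 named members, 767 of 858 repeated values stayed on their side of the threshold without a called change of direction, though 44 of these, called in neither fit, changed sign. The call was lost in 54 and gained in 29, and in 8, called in at least 1 of the fits, the sign turned. All 8 are in UV-RIP. Mrps28, called lower at −0.12, read 0.0576 with TMM (adjusted p = 0.279), 0.0302 with the library sizes without Gm26917 and Gm42418 (adjusted p = 0.627) and 0.0495 with the median of ratios (adjusted p = 0.504). Mrps30, called lower at −0.25, read 0.14 with the GC trend removed (adjusted p = 0.0805). The others, not called before, became higher. Mrpl12 read 0.13 with TMM (adjusted p = 0.0466) and 0.19 with the length trend removed (adjusted p = 0.00327), and with TMM Mrps27 read 0.11 (adjusted p = 0.0155) and Mrps18a 0.15 (adjusted p = 0.0311). Depth limits single genes, with means of 43.8 to 2140 UMIs per library.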
